A study of Mus musculus with 24 samples.

Results

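The immediate early transcription factor genes Jun, Fos, Egr1 and Atf3 were followed in mouse embryos after a brief heat shock. Members were the genes whose probe carries exactly 1 gene symbol in the platform annotation, equal to 1 of these names. All 4 genes were found, of 6970 genes with 1 symbol, each on 1 probe. Jun and Atf3 were on slide type 1 with 3838 such genes, and Egr1 and Fos were on slide type 2 with 4075.

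Whole embryos in culture were held at 43 °C for 15 min, put back to 37 °C and taken 1 h later, and their total RNA was hybridised against that of untreated embryos cultured at 37 °C. The 24 arrays with 2 channels came from 3 numbered heat treatments, each on both slide types. Each treatment and slide type had 4 arrays. Forward arrays held heat-shocked RNA in channel 1 and reverse arrays held it in channel 2, and each order had an array with and an array without a suffix B in the slide code, whose meaning is not stated. Strain, stage and the number of embryos pooled were not given in the sources used here, and the labels do not say whether the treatments were separate litters. The p-values below therefore take in only the spread between these 3 treatments, which may be technical, and the number of arrays limits the precision. Limma also shrinks the spread of each gene towards a value pooled over all genes. For genes whose treatments lie far apart, as with all 4 genes here, p-values and intervals are narrower than their own spread would give. A limma call is thus not a measure of agreement between the treatments.

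Immediate early genes are transcribed within minutes of a stimulus, without new protein synthesis, because the factors that switch them on are already present in the cell. Growth factors, serum, stress kinases and heat all reach them, largely through MAP kinases acting on serum response factor with its ternary complex partners and on the ATF and CREB proteins. Jun and Fos pair to form the transcription factor AP-1, Egr1 is a zinc finger activator, and Atf3 is a stress-induced member of the ATF and CREB family that often acts as a repressor. Their messages are short lived, so a level measured after recovery is one moment of a passing response.

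The 250 bases before the annotated start are shown for Jun, Fos and Atf3, because these genes lay on the same side of 0 in the comparison and the letters let a reader see which known elements their promoters share. The sequences come from RefSeq on GRCm38.p6, 5′ to 3′ on the strand of the gene, and 3 of the 4 genes matched an entry. The Jun window is chr4:95052223-95052472 on the minus strand, the Fos window is chr12:85473640-85473889 on the plus strand, and the Atf3 window is chr1:191183334-191183583 on the minus strand. Each ends at the base before the gene, so it lies outside the transcribed gene and holds no exon of it. Capitals mark matches to the 7 motifs searched on both strands.
Jun: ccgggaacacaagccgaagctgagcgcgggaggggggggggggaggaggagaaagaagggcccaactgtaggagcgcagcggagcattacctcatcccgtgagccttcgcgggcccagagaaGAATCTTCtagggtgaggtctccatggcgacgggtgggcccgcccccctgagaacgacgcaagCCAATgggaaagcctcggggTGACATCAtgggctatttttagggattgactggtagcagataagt
Fos: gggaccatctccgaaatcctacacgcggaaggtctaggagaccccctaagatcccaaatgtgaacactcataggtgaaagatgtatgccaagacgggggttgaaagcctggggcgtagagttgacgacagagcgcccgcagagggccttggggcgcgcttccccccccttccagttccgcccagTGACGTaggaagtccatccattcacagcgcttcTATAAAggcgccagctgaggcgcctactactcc
Atf3: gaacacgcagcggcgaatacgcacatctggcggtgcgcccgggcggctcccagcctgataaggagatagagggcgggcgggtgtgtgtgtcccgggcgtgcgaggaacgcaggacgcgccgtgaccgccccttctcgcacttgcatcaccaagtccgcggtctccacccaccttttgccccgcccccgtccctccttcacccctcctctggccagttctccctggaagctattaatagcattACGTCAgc

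The motifs were the heat shock element pairs GAANNTTC and TTCNNGAA, the cyclic AMP response element core TGACGT, the Jun promoter element TGACATCA, the AP-1 element TGACTCA, the TATA box TATAAA and the CCAAT box CCAAT, and no match printed here overlapped another. The Jun window held GAATCTTC, a match to GAANNTTC, from base -128 to base -121 before the start. Of 32851 promoter windows of the same length, 6.69% held GAANNTTC and 7.17% held TTCNNGAA. The Jun window also held CCAAT from -65 to -61, which 33.8% of windows held, and TGACATCA from -45 to -38, which 2.93% held. TGACATCA is known as a site in the Jun promoter that Jun itself binds with ATF proteins. The Fos window held TGACGT from -66 to -61 and TATAAA from -33 to -28, which 6.47% and 12.4% of windows held. The Atf3 window held TGACGT as ACGTCA on the other strand, from -8 to -3. None of the 3 windows held TTCNNGAA or TGACTCA, the latter found in 4.46% of windows. The share of G and C was 61.2% for Jun, 58.4% for Fos and 65.2% for Atf3, against a median of 52.4% over all windows. TGACGT was thus the motif that Fos and Atf3 shared, and the heat shock element match was in Jun alone of the 3. A match is a run of letters and was not tested as a binding site.

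**Figure D1:**
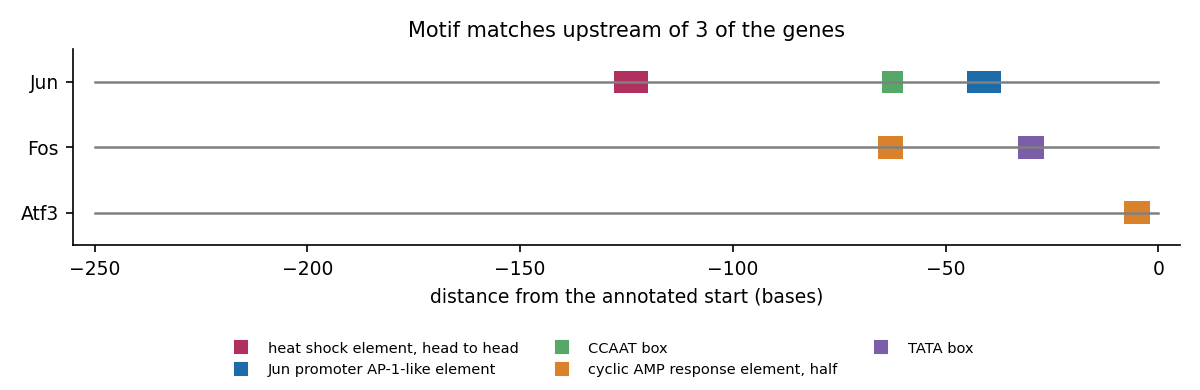
Motif matches in the 250 bases before the annotated start of Jun, Fos and Atf3, by distance from the start in bases. Jun has 3 matches, Fos has 2 and Atf3 has 1.

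The deposited values are log ratios whose base and numerator are not stated. One step of 1 log unit is thus 2-fold on a base 2 scale and 2.72-fold on a natural one. Each array was centred on its median, and reverse arrays were multiplied by -1. The positive side then means higher after heat shock only if the authors divided channel 1 by channel 2. Otherwise every sign below turns, and each rank counts from the low end. Hsph1, a classic heat shock gene, lay on the positive side at 2.28, and so did the small-chaperone gene Hspb1 at 2.23. Both were chosen after their values were seen, and the numerator was not tested. Over all probes, arrays of the same channel order correlated at r = 0.29 to 0.82 on slide type 1. These correlations ran from -0.34 to 0.94 on slide type 2, and by themselves they do not settle the direction of its arrays. Deposited values of the opposite orders should run against each other, and there they correlated at -0.32 in treatment 1, 0.65 in treatment 2 and 0.04 in treatment 3. After averaging over both orders, the treatment means of slide type 2 correlated at 0.82 to 0.90 and those of slide type 1 at 0.70 to 0.80, as a description over probes that share arrays. The mean of 2.23 for Hspb1 on slide type 2 had an SD of only 0.05 over the 3 treatments. Whether any array pair had the other direction was not tested. The median of all genes was -0.04 (quartiles -0.10 and 0.02) on slide type 1 and -0.05 (quartiles -0.19 and 0.11) on slide type 2. Because whole embryos were measured, a change in the share of cells of a type and a change in RNA per cell cannot be told apart. The array ratios hold no levels, so the tissue could not be checked by the presence of markers. Of 11 cell type markers measured on slide type 1, 0 were called positive and 1 was called negative, the neural gene Tubb3 at -0.21 ± 0.04 (SD, n = 3, limma adjusted p = 0.0359). Tubb3 also differed between channel orders, by 0.41 as forward minus reverse (limma adjusted p = 0.037), so its size was not the same in both orders. Slide type 2 carried 6 markers, with 0 called positive and 3 called negative, the collagen genes Col1a1, Col1a2 and Col3a1 at -0.60 to -0.35. The 4 probes of Col3a1 ran from -0.51 to 0.08. Of all genes, 5.73% were called positive and 5.65% negative on slide type 1, and 18.5% and 31.9% on slide type 2. At an unadjusted limma p under 0.05, 0 markers were positive on either slide type. Their part in the results was not tested.

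All 4 immediate early genes lay on the positive side with limma's adjusted p below 0.05, and in all 3 treatments for each gene. Jun and Egr1 were large, with means of 1.97 and 1.74 log units, and Fos and Atf3 were small, with 0.47 and 0.43. The background for positive calls was 5.73% of genes on slide type 1 and 18.5% on slide type 2. Negative calls made up 5.65% and 31.9%, so a call alone says little on slide type 2 and the size of the ratio says more. By value, Jun stood at rank 2 of 3838 genes and Atf3 at 78, whereas Egr1 stood at rank 4 of 4075 and Fos at 58. With 3 treatments, an exact two-sided sign test gives p = 0.25 for each gene, the smallest it can give.

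**Figure D2:**
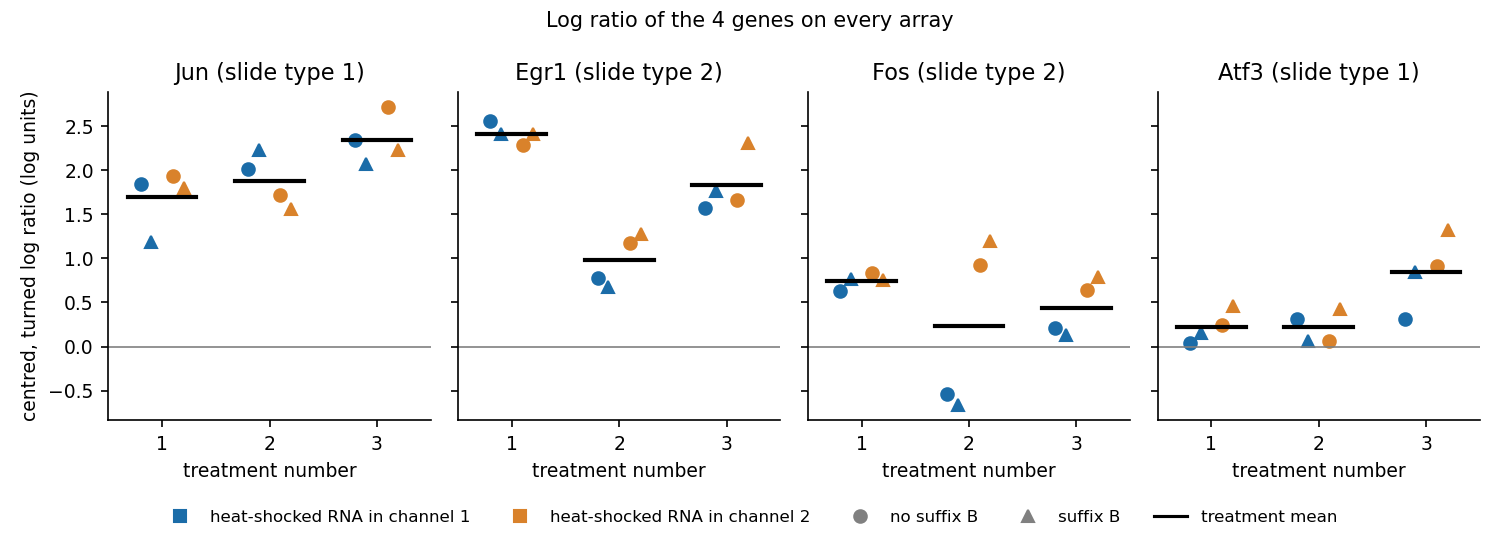
Centred, turned log ratio (log units) of Jun, Egr1, Fos and Atf3 on each of the 12 arrays of their slide type, by treatment number, with bars at the treatment mean, colour for the channel order and shape for the suffix. Jun, Egr1 and Atf3 are above 0 on 12 of 12 arrays and Fos on 10 of 12.

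Jun, the AP-1 subunit that can pair with itself as well as with Fos, gave the larger ratio of the 2 genes on slide type 1. Its gene lies at chr4:95049036-95052222 on GRCm38.p6. Over the 12 arrays the log ratio ran from 1.19 through a median of 1.98 to 2.72, so every array was on the positive side. Treatment means were 1.69, 1.88 and 2.34. The mean was 1.97 ± 0.33 (SD, n = 3), with a limma 95% confidence interval of 1.74 to 2.20 and an adjusted p of 3.8e-06. That is 3.92-fold for base 2 and 7.18-fold for a natural log. Within the treatments Jun ranked 2, 2 and 1 among the 3838 genes, and 16 genes had a larger SD over treatments. The gene above it by mean, chosen here after its value was seen, was Hsph1, a chaperone of the Hsp110 family that is a classic heat shock gene, at 2.28 ± 0.50. Jun and this chaperone gene thus had the 2 largest mean ratios of slide type 1.

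Jun was large in both channel orders. Deposited values ran from 1.72 to 2.99 on forward arrays and from -3.39 to -1.39 on reverse arrays, so the raw sign turned with the channel on every array. Forward arrays gave treatment means of 1.51, 2.12 and 2.21, and reverse arrays gave 1.87, 1.64 and 2.48. The order difference, forward minus reverse, was -0.05 on average, with an interval from -0.42 to 0.33 and a limma adjusted p of 0.844. Channel order was called for 15.8% of genes on slide type 1, that is 607 genes, and Jun was not among them. Without treatments 1, 2 and 3 in turn 175, 432 and 1344 genes were called, and without centring 2253, so this background is not firm. The order difference of Jun was 0.20 without centring, and over left-out treatments it ranged from -0.31 to 0.11. Ranks were between 1 and 10 on forward arrays and between 1 and 4 on reverse arrays. Jun thus stayed among the 10 largest ratios on each of its 12 arrays.

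Egr1, the zinc finger factor read out in many tissues as a marker of recent stimulation, was also high, on slide type 2, and its treatments lay far apart. The log ratio ran from 0.68 through a median of 1.71 to 2.56 over 12 arrays, all on the positive side. Treatment means were 2.42, 0.98 and 1.83. The mean was 1.74 ± 0.72 (SD, n = 3), with a limma interval of 1.41 to 2.07 and an adjusted p of 3.98e-07, or 3.34-fold for base 2 and 5.70-fold for a natural log. Egr1 was the gene of largest ratio on slide type 2 in treatment 1, rank 3 in treatment 3 and rank 20 in treatment 2. Its SD over treatments was the largest of all 4075 genes, of which 0 were larger. The limma interval is narrower than that spread because the variance is shrunk towards a value pooled over genes, and with limma's robust prior, which shrinks such genes less, the adjusted p was 0.0655. The small-chaperone gene Hspb1, chosen here after its value was seen, had a larger mean of 2.23 on the same slide type with an SD of 0.05. The 753 genes called positive on slide type 2 had medians of 0.29, 0.15 and 0.22 in the 3 treatments, and so were lowest in treatment 2, as Egr1 was.

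In the opposite channel orders, Egr1 kept its side. Treatment means were 2.48, 0.73 and 1.67 on forward arrays, and 2.35, 1.23 and 1.99 on reverse arrays. The order difference averaged -0.23, with an interval from -0.98 to 0.53 and a limma adjusted p of 0.786. Limma called 0 of 4075 genes for channel order on slide type 2, a background of 0%, against 357 at an unadjusted p under 0.05 and 0 with the robust prior. That count rests on treatment 1, since without it 522 genes were called. The Egr1 order difference itself was -1.52 (limma adjusted p = 0.191) without centring, and it ranged from -0.41 to -0.090 over left-out treatments. Before centring, Egr1 was negative in treatment 2 in both orders, at -0.73 and -0.63 on forward arrays and at -2.46 and -2.46 on reverse arrays. The medians of all probes on these 4 arrays were between -1.51 and -1.18, and the positive side of Egr1 on the forward arrays of that treatment rests on the centring.

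Fos, the partner of Jun in AP-1, gave a smaller ratio, and its channel orders lay apart in treatments 2 and 3. Its gene lies at chr12:85473890-85477274. The log ratio ran from -0.67 through a median of 0.70 to 1.20, with 10 of 12 arrays on the positive side. Treatment means were 0.75, 0.23 and 0.44, and the mean was 0.47 ± 0.26 (SD, n = 3), with a limma interval of 0.31 to 0.64 and an adjusted p of 0.000148. That is 1.39-fold for base 2 and 1.61-fold for a natural log. The means of treatments 1 and 2 lay outside the limma interval, which rests on the shrunk variance. Within the treatments Fos ranked 26, 216 and 64. Reverse arrays gave 0.79, 1.06 and 0.72, all positive and close together. Forward arrays gave 0.70, -0.60 and 0.17. The orders differed least in treatment 1, by -0.09, whereas treatments 2 and 3 differed by -1.66 and -0.55.

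The order difference of Fos averaged -0.77, with an interval from -1.59 to 0.06 and a limma adjusted p of 0.557. It was -1.10 (adjusted p = 0.0508) without treatment 1, -0.32 without treatment 2, -0.88 without treatment 3 and -2.06 (adjusted p = 0.106) without centring. Over all genes of slide type 2 the median order difference was 0.15 and the median absolute one 0.54, and Fos stood at rank 3769 of 4075 from the positive end. Forward arrays alone gave a Fos mean of 0.090 (limma adjusted p = 0.978) and reverse arrays alone gave 0.86 (adjusted p = 0.0585), so neither order passed the threshold without the other. Both negative Fos arrays, at -0.53 and -0.67, were the forward arrays of treatment 2. In that treatment the deposited values of forward and reverse arrays ran together, which does not say whether either pair is off. Alternatives chosen after seeing the data turned or dropped each pair. Giving the forward pair the other sign put Fos at 0.67 and Egr1 at 1.50, both with limma adjusted p = 0.157. Leaving it out put Fos at 0.75 (adjusted p = 0.229) and Egr1 at 1.82 (adjusted p = 0.123). Giving the reverse pair the other sign put Fos at 0.12 and Egr1 at 1.33, both with limma adjusted p = 1, and leaving it out put them at 0.20 (adjusted p = 1) and 1.66 (adjusted p = 0.232). The calls of Fos and Egr1 thus depend on how the treatment 2 arrays are treated. All genes were refitted in these settings, and the share of them that kept a call was not counted. The loss can therefore not be read as particular to Fos and Egr1.

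**Figure D3:**
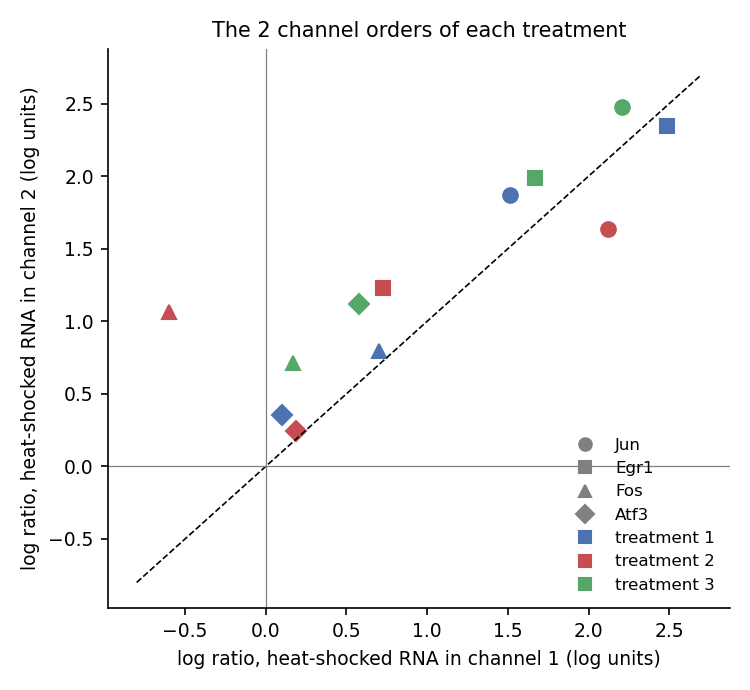
Treatment means (log units) of forward arrays (heat-shocked RNA in channel 1) against those of reverse arrays (in channel 2), for Jun, Egr1, Fos and Atf3 in 3 treatments; the dashed line marks the same size in both orders. Fos in treatment 2 lies far from the line, at -0.60 and 1.06.

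Atf3, induced by many stresses and known to bind the same kinds of sites as other ATF and CREB proteins, was small in treatments 1 and 2 and larger in treatment 3. Its gene lies at chr1:191170296-191183333. The log ratio ran from 0.04 through a median of 0.31 to 1.32, with all 12 arrays on the positive side. Treatment means were 0.23, 0.22 and 0.85, and Atf3 ranked 226, 274 and 20 within them. The mean was 0.43 ± 0.36 (SD, n = 3), with a limma interval of 0.19 to 0.67 and an adjusted p of 0.0334, or 1.35-fold for base 2 and 1.54-fold for a natural log. Only 9 of 3838 genes had a larger SD over treatments, and the treatment 3 mean lay above the limma interval. Without treatment 3 the mean was 0.22 and the adjusted p 0.0442. Without treatment 1 it was 0.53 and the adjusted p 0.0779. The call was also lost on arrays without the suffix B alone, where the mean was 0.31 and the limma adjusted p 0.0795. The size of Atf3 was therefore set largely by treatment 3, while its side was the same on every array.

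In both channel orders the treatment 3 value of Atf3 was the largest. Forward arrays gave 0.10, 0.19 and 0.58, and reverse arrays gave 0.35, 0.24 and 1.12. The order difference averaged -0.28, with an interval from -0.56 to -0.0034 and a limma adjusted p of 0.135. Neither order passed the threshold without the other, at 0.29 (adjusted p = 0.0668) and 0.57 (adjusted p = 0.0785). Deposited values were positive on all 6 forward arrays, from 0.33 to 1.50, and negative on all 6 reverse arrays, from -1.70 to -0.04, so like Jun the raw sign turned with the channel.

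The spread of each gene can be read at 3 layers. Arrays of the same treatment and order, with and without the suffix, lay 0.32 apart on average for Jun, 0.31 for Atf3, 0.22 for Egr1 and 0.14 for Fos. The median over all genes was 0.14 and 0.17 on slide types 1 and 2. Channel orders lay 0.37 apart for Jun, 0.28 for Atf3, 0.32 for Egr1 and 0.77 for Fos, against a median over all genes of 0.25 and 0.54. Treatments spanned 0.65 for Jun, 0.63 for Atf3, 1.44 for Egr1 and 0.51 for Fos, whereas the median gene spanned 0.17 on both slide types. The widest suffix pair lay 0.65 apart for Jun, 0.53 for Atf3, 0.65 for Egr1 and 0.27 for Fos. For Jun, the widest pair alone thus differed by as much as its treatment means spanned, while its pairs lay 0.32 apart on average. The labels do not say whether the arrays of a suffix pair held the same RNA. A range over treatments and a mean gap between pairs are different measures and are not ranked here. Between genes of a slide type, the Jun log ratio exceeded that of Atf3 by 1.47, 1.66 and 1.49 in the 3 treatments, and that of Egr1 exceeded Fos by 1.67, 0.74 and 1.39. These are differences of log ratios, not of levels, and probes may compress ratios unequally.

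The treatments can be ordered within each slide type. Jun and Atf3 were highest in treatment 3, and Egr1 and Fos were highest in treatment 1 and lowest in treatment 2. Of the 220 genes called positive on slide type 1, 41.4% were highest in treatment 3 and 50.5% in treatment 2. Of the 753 called positive on slide type 2, 59.8% were highest in treatment 1 and 64.1% were lowest in treatment 2, so the highest and the lowest treatment of Egr1 and Fos were each the most frequent one there. Because the slide types carry different probes and were normalised apart, an order on one was not set against the other.

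**Figure D4:**
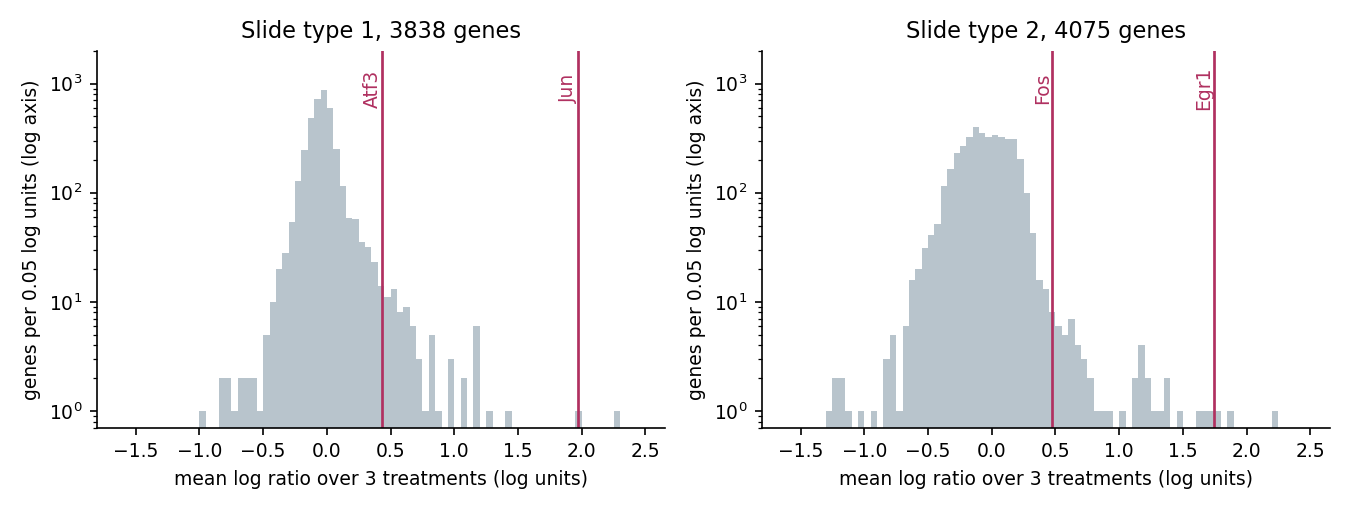
Number of genes per 0.05 log units of mean log ratio over 3 treatments (log count axis) on slide types 1 and 2, with lines at the 4 genes. Jun (1.97) and Egr1 (1.74) lie in the far positive tail, and Atf3 (0.43) and Fos (0.47) on its shoulder.

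Other genes of the same pathways were taken from 10 lists. With the 4 genes left out, slide type 1 had 6 of 42 measured list genes (14.3%) called positive and 1 (2.38%) called negative, against 5.73% and 5.65% of all genes. Slide type 2 had 10 of 39 (25.6%) called positive and 12 (30.8%) called negative, against 18.5% and 31.9%. The medians of these list genes were -0.01 and -0.04, close to those of all genes. Without treatment 1 the positive list counts were 2 and 4 on slide types 1 and 2, while those of all genes went from 220 to 125 and from 753 to 293. Without treatment 3 the list counts were 3 and 6, and those of all genes were 195 and 380. The list calls of slide type 2 also depended on the processing. The 10 positive and 12 negative calls became 1 and 1 without centring, Csrnp1 and Dusp7, and 2 and 7 with arrays scaled to a common spread. With forward arrays alone or reverse arrays alone limma made 0 list calls on either side of slide type 2, against 1 positive and 2 negative genes at an unadjusted p under 0.05 on forward arrays and 7 and 9 on reverse arrays. The calls given below for slide type 2 hold only for the average of both orders. No other Jun or Egr family gene of the lists was among the genes with 1 symbol, so the ratios of Jun and Egr1 could not be set against their closest relatives.

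Among the AP-1 and EGR genes themselves few were on the slides. Fosl2, a Fos relative that pairs with Jun proteins, was positive at 0.24 ± 0.18 (SD, n = 3, limma adjusted p = 0.00782), but without treatment 1 it was 0.16 with an adjusted p of 0.144, and on forward arrays alone it was -0.090. The Fos relative Fosl1 was at -0.06 and the small Maf protein Mafg at -0.17 on slide type 1, and neither was called. In the EGR list, Nab1, a corepressor that binds Egr1, was 0.21 ± 0.10 (adjusted p = 0.00907) by its slide type 2 probe and 0.04 ± 0.21 (adjusted p = 0.826) by its slide type 1 probe. Without treatment 1 the slide type 2 probe gave 0.17 (adjusted p = 0.105), and without treatment 3 it gave 0.19 (adjusted p = 0.0891). Of the ATF and CREB relatives, Atf6 was at -8.71e-05 on slide type 1, and 4 of the 5 that slide type 2 carried were not called. The exception was Atf4, the activator of the amino acid and unfolded protein stress response and a known inducer of Atf3, at -0.35 ± 0.15 (adjusted p = 0.000386). Without centring Atf4 was -0.27 (adjusted p = 0.299), and on forward arrays alone -0.078 (adjusted p = 0.982).

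The list of 45 other immediate early genes had 15 measured genes on slide type 1, of which 5 were positive and 1 negative. Of all genes there, 5.73% were positive and 5.65% negative. Id1, a helix-loop-helix inhibitor of differentiation, was 0.70 ± 0.20 (SD, n = 3, limma adjusted p = 0.000273). Klf6, a zinc finger factor, was 0.73 ± 0.33 (adjusted p = 0.00136), with its probes at 0.44 and 1.02. The growth arrest gene Gadd45g was 0.32 ± 0.13 (adjusted p = 0.0104), and 0.36 with an adjusted p of 0.0521 without treatment 1. With Hmox1, a gene of another list, the 5 positive genes of this list made up the 6 positive list genes of slide type 1. All 6 were highest in treatment 3, where Jun and Atf3 were highest too. Of the 220 genes called positive on slide type 1, 41.4% were highest in treatment 3 and 50.5% in treatment 2. Whether the 6 genes differ from that background was not tested. Slide type 2 held 9 genes of this list, with 3 positive and 2 negative, against 18.5% and 31.9% of all genes. Csrnp1, a nuclear protein of the early response, was 0.43 ± 0.18 (adjusted p = 0.000102), about the size of Fos. The kinase gene Sgk1 was 0.27 ± 0.02 (adjusted p = 0.00114), but -0.041 on forward arrays alone, and its call was lost without centring (0.35, adjusted p = 0.175). Zfp36l1, which speeds decay of messages with AU-rich elements, was on the negative side at -0.40 ± 0.0028 (adjusted p = 4.26e-05).

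Myc, the growth regulator that classically rises after Jun and Fos, was on the negative side of slide type 1 and of slide type 2. It gave -0.36 ± 0.14 (SD, n = 3, limma adjusted p = 0.00577) on the former and -0.49 ± 0.03 (adjusted p = 4.73e-06) on the latter. Without centring they were -0.06 (adjusted p = 0.731) and -0.41 (adjusted p = 0.0875). On slide type 1 the centring moves the median of all genes from 0.27 to -0.04, a shift of the size of several of these values. Jun, Atf3, Egr1 and Fos all kept their calls without centring, at 2.28, 0.73, 1.82 and 0.56.

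The upstream genes gave small values. On slide type 1, 0 of 10 MAP kinase cascade genes, 0 of 3 serum response and ternary complex factors and 0 of 3 phosphatases were called by limma at an adjusted p under 0.05, and their values lay between -0.14 and 0.10. Of these genes, 1 had an unadjusted limma p under 0.05, the kinase gene Map3k7 at -0.13 (unadjusted p = 0.0457 by limma, adjusted p = 0.196). On slide type 2 Map3k7 lay on the other side, at 0.13 (unadjusted p = 0.036 by limma, adjusted p = 0.0663). Of 13 cascade genes on slide type 2, 3 were positive and 4 negative. Over all genes of slide type 2 these shares were 18.5% and 31.9%, which also apply to the phosphatases below. The counts alone are thus not a result about the cascade. Mapkapk2, a kinase activated by p38, was -0.34 ± 0.14 (SD, n = 3, limma adjusted p = 0.000485), and Map2k2, which activates the ERK kinases, was -0.33 ± 0.15 (adjusted p = 0.000696). The atypical kinase gene Mapk6 was -0.26 ± 0.05 (adjusted p = 0.0015) by its slide type 2 probe and 0.03 ± 0.04 (adjusted p = 0.84) by its slide type 1 probe. Map2k2 gave -0.11 ± 0.10 (adjusted p = 0.294) on slide type 1. Mapk13, a p38 kinase, was 0.24 ± 0.11 (adjusted p = 0.00398), or 0.20 with an adjusted p of 0.0516 without treatment 1. Of the dual-specificity phosphatases, which switch MAP kinases off and are often induced with the immediate early genes, 2 of 5 were positive and 1 negative. Dusp7 was -0.54 ± 0.06 (adjusted p = 2.41e-06), Dusp16 was 0.29 ± 0.15 (adjusted p = 0.00181, probes at 0.15 and 0.43) and Dusp14 was 0.22 ± 0.07 (adjusted p = 0.00595), with -0.041 on forward arrays alone. Without centring, Dusp7 kept its call and the other named cascade and phosphatase genes of slide type 2 lost theirs, at limma adjusted p between 0.143 and 0.505. No serum response or ternary complex factor of the list was measured on slide type 2.

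Of the genes usually named as AP-1 or Egr1 targets, few were called positive, while 5.73% and 18.5% of all genes were on slide types 1 and 2. The medians of these targets were -0.02 and -0.19, against -0.04 and -0.05 for all genes. On slide type 1, 1 of 7 was called, the heme oxygenase gene Hmox1 at 0.24 ± 0.11 (SD, n = 3, limma adjusted p = 0.0309). Without treatment 1 it was 0.28 (adjusted p = 0.0994) and without treatment 3 it was 0.18 (adjusted p = 0.0828). Hmox1 was 0.41 (adjusted p = 0.00339) on forward arrays alone but 0.077 (adjusted p = 0.6) on reverse arrays alone. Its call was also lost with the median of the 4 arrays (adjusted p = 0.0603). The 5 measured on slide type 2 had 0 positive and 4 negative calls by limma, where 31.9% of all genes were negative. Ccnd1, the G1 cyclin, was -0.40 ± 0.06 (adjusted p = 5.01e-05). The growth factor gene Pdgfa at -0.19 ± 0.03 (adjusted p = 0.0116), the matrix protease gene Mmp2 at -0.19 ± 0.14 (adjusted p = 0.0188) and the growth factor gene Igf2 at -0.22 ± 0.24 (adjusted p = 0.0223) were smaller. Each of these 3 lost its call without 1 of the treatments: Pdgfa was -0.20 without treatment 1 and -0.20 without treatment 3, Mmp2 was -0.12 without treatment 2 and -0.19 without treatment 3, and Igf2 was -0.08 without treatment 2. All 4 calls were lost without centring, with limma adjusted p of 0.237 for Ccnd1, 0.723 for Pdgfa, 0.71 for Mmp2 and 0.629 for Igf2, and on either channel order alone. Mmp2 was 0.22 on forward arrays alone. By its slide type 1 probe Igf2 gave -0.03 ± 0.22 (adjusted p = 0.853).

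**Figure D5:**
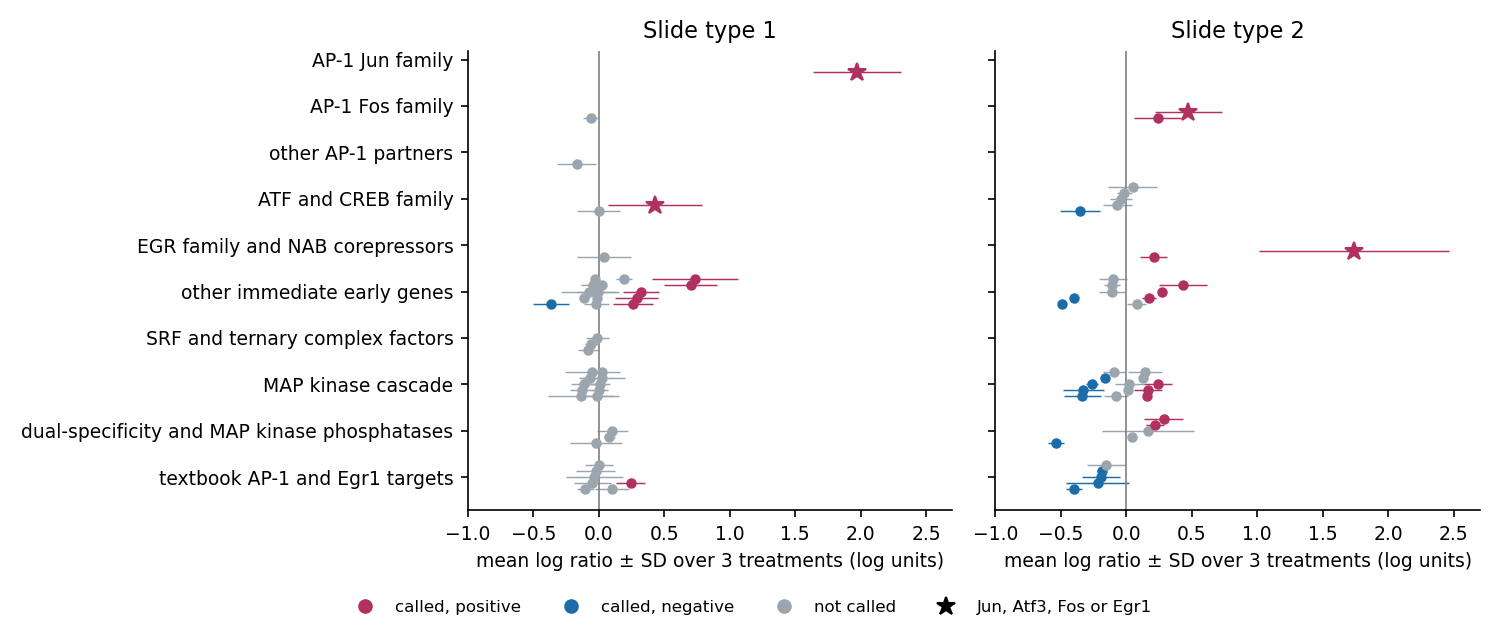
Mean log ratio ± SD over 3 treatments (log units) of each measured gene in the 10 pathway lists, on slide types 1 and 2; stars mark Jun, Atf3, Fos and Egr1, and colour marks the side of limma calls. Jun at 1.97 and Egr1 at 1.74 stand apart from the other list genes, which lie between -0.54 and 0.73.

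For each of the 4 genes, the 3 most alike genes were those of the same slide type with the smallest root mean square difference over the 12 arrays. Jun was nearest to Tgoln1, a trans-Golgi protein, at 0.63 log units, then to Hsph1 at 0.70 and Scfd1, a vesicle fusion regulator, at 0.82, where the median gene lay at 2.06. Egr1 was nearest to Pafah1b1 at 0.75, then to Kif28 and Mst1r at 0.80 each, where the median gene lay at 1.93. Their means over treatments were 1.64 ± 0.08, 1.18 ± 0.21 and 1.78 ± 0.06 (SD, n = 3). Egr1 had the largest SD of its slide type, so smaller SDs in these genes were given in advance. Atf3 was nearest to Aldoa, a glycolytic enzyme, at 0.27, then to Alkbh1 at 0.29 and Klf11 at 0.29, with the median gene at 0.66. Fos was nearest to 4632427E13Rik at 0.25, 1700057H21Rik at 0.27 and the caveolin gene Cav1 at 0.29, with the median gene at 0.88. The nearest genes of Jun and Egr1 were still over 0.6 log units away.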

How the data were processed

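Total RNA of heat-shocked and control mouse embryos in culture was measured on 24 arrays with 2 channels. The authors deposited log ratios, read here as a score of unstated scale. For the log base, numerator, background correction and normalization the sources used here give nothing. Each slide type had 7680 probes, with 0 missing values and 0 columns unmapped. Of these, 4749 and 4935 carry 1 gene symbol, 227 and 275 carry several, and 2704 and 2470 carry none (slide types 1 and 2). Probes of a gene were averaged.

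Each array was centred on its median, turned by channel order, and averaged to 1 value per treatment with both orders weighted equally. The 3 treatments were the replicates. Limma 3.58.1 in R 4.3.3 (lmFit, eBayes, intercept) was run on all genes of a slide type, with Benjamini-Hochberg adjustment at 0.05. Channel order was tested on the difference between orders. The fit was tested on simulated data. Brightness of spots was not used, and dim or saturated spots stayed in. Named genes were the 4 members, up to 4 called genes per list and slide type by smallest p, and 3 nearest genes per member. Fosl1, Mafg, Atf6, Map3k7, the named markers, Hspb1 and the slide type 1 values of Nab1, Mapk6, Map2k2 and Igf2 were added after their values were seen. The members, lists and tests were chosen with earlier results of these data known, and the motifs after the promoters were seen. Alternatives covered centring, scaling, channel order, suffix, averaging, prior, replicate block, left-out treatments and probe-level fits. Motifs were searched in RefSeq promoter windows on GRCm38.p6. Gene coordinates are from the same RefSeq table. Figures were drawn with matplotlib 3.10.9.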

Additional observations from a re-analysis of the deposited data

Results flagged for a closer look

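Among the forward arrays, 1 lay far from the others in Atf3. The array of treatment 3 with the suffix B stood at 0.84 log units, and its gap to the nearest of the other 5 was 0.66 of the whole range of the 6 arrays, above the 95% limit of Dixon's test. The arrays of the 4 genes were tested in 8 groups of 6, and chance flags about 1 in 20 groups. The 6 arrays come from 3 treatments and are not independent.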

How the results depend on the processing

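All 4 means stayed positive under every alternative run. With the treatment as a random replicate block (paired channel orders), limma adjusted p was 3.24e-07 for Jun, 0.0164 for Atf3, 0.000161 for Fos and 3.21e-07 for Egr1. The block changed no call of a named gene. The estimated correlation within a treatment was -0.40 on slide type 1 and -0.86 on slide type 2. A negative correlation narrows the error of the mean, so the kept calls do not show that the channel orders gave the same size. Atf3 lost its call with arrays scaled to a common spread (0.44, adjusted p = 0.0515), with forward arrays alone (0.29) or reverse arrays alone (0.57), and without the suffix B arrays (0.31), and ranged from 0.22 to 0.54 when each treatment was left out. Fos lost it with forward arrays alone (0.090) and reverse arrays alone (0.86), and with the forward arrays of treatment 2 turned (0.67) or left out (0.75) or the reverse ones turned (0.12) or left out (0.20). Egr1 lost it in the same 4 settings (1.50, 1.82, 1.33 and 1.66) and with the robust prior (1.74, adjusted p = 0.0655). The order difference of Jun reversed to 0.20 without centring and ranged from -0.31 to 0.11 over left-out treatments. Those of Fos, Egr1 and Atf3 stayed negative in each setting run, and without centring were -2.06, -1.52 and -0.031.

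Called genes numbered 220 positive and 217 negative on slide type 1. These became 408 and 431 with forward arrays alone, 69 and 125 with reverse arrays alone, 141 and 75 with the suffix B alone and 844 and 391 on all probes, while the negative count was 5 without centring and 119 with centring on named probes. Over left-out treatments they ranged from 125 to 195 and from 53 to 245. On slide type 2, 753 and 1299 became 76 and 65 without centring, 1249 and 861 with centring on named probes, 211 and 539 with scaled arrays, 44 and 6 with forward arrays alone, 13 and 11 with reverse arrays alone, and 2219 positive on all probes, and the positive count ranged from 293 to 983 over left-out treatments. The cause was not tested, beyond the fewer arrays or the more probes of some settings.

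Of 39 other values of named genes, 20 lost their call without centring, 26 with reverse arrays alone, 15 with forward arrays alone and 12 with scaled arrays. With forward arrays alone, 9 more reversed, 6 of them on slide type 2: Sgk1 (-0.041), Dusp14 (-0.041), Fosl2 (-0.090), Mmp2 (0.22), 1700057H21Rik (-0.19) and Cav1 (-0.051). Nab1 on slide type 1 reversed with reverse arrays alone (-0.14) and with the suffix B alone (-0.015), and ranged from -0.069 to 0.14 over left-out treatments. The uncalled slide type 1 values of Mapk6 (-0.077), Map2k2 (0.0025) and Igf2 (0.028) turned with forward arrays alone. Map2k2 (0.19) and Igf2 (0.27) turned without centring, Igf2 turned with centring on named probes (0.0084), and Igf2 ranged from -0.15 to 0.068 over left-out treatments.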
